A study of Homo sapiens with 9 samples.

Results

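Argonaute binding to the mRNAs of 10 genes that shape the endoplasmic reticulum (ER) was examined in MDA-MB-231HM cells, a highly metastatic derivative of a human triple-negative breast cancer line with wild-type genotype per the labels. The genes were RTN1, RTN2, RTN3 and RTN4, REEP3, REEP4 and REEP5, ATL2 and ATL3, and CKAP4. They were chosen by the scores reported here, RTN4 for its high score, so the scores, and the presence of peaks in these genes, are given as a description with no test. Peaks were assigned to a gene when the midpoint lay in its body on the same strand of the hg19 genome. This gave 10 peaks of the 8460 in both lists, in 5 of the 10 genes, beside 19.5% of 20162 protein-coding genes with a peak in either list. The miR-342-3p list held 3 of them among its 3450 peaks and the miR-342-5p list 7 among its 5010.

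Cells had received a 20 nM synthetic mimic of miR-342-3p, of miR-342-5p, or a negative control mimic, and were cross-linked with UV light 48 h later. Ago2-bound RNA was then sequenced (Ago-HITS-CLIP, in which the RNA that stays linked to Argonaute marks where it sat). Each of the 3 groups had 3 libraries, and the 2 peak lists hold 1 merged score per region for a mimic over the negative control. No value per library was given, so no spread between replicates and no n stand behind a score, the read depth of the libraries is unknown, and both lists share the same control libraries. The score is described in the study's methods as reads above background. The scaling between libraries is not given in the sources used here, and no score of 1 list is set against a score of the other.

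Reticulons and REEP proteins insert hairpins into the cytoplasmic face of the ER membrane and bend it into tubules. Atlastins are membrane GTPases that fuse tubules into a network, and CKAP4 (CLIMP-63) is a coiled-coil protein that holds the faces of ER sheets apart. RTN4, also called Nogo, is best known for its long isoform, which inhibits neurite growth. A microRNA guides Argonaute mainly through its seed, bases 2 to 8, and the strongest contacts pair the seed with a complementary stretch of the mRNA.

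The mature sequences of both mimics, from RefSeq, are shown first because every match below derives from them, with the seed in capitals.
miR-342-3p: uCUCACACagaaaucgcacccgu
miR-342-5p: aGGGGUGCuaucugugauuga
For miR-342-5p the 8mer match is GCACCCCA, the 7mer-m8 GCACCCC, the 7mer-A1 CACCCCA (an A opposite base 1), the 6mer CACCCC, and the offset 6mer, which pairs bases 3 to 8, GCACCC. For miR-342-3p the 8mer is GUGUGAGA, the 7mer-A1 reads UGUGAGA and the 6mer is UGUGAG. A peak was said to hold a site when an 8mer or 7mer lay within 50 nt of its summit, the position of highest signal.

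The following stretches, given as RNA with the match in capitals, carry the miR-342-5p results. The first 4 lay under peaks of RTN4 and ATL3, and the last 4 held a 7-nt match with no peak near it. All are on the minus strand of hg19.
RTN4 3′UTR, chr2:55199682-55199711: uaccuuccagcCACCCCAcagugcuugaua
RTN4 exon 1, chr2:55277373-55277402: ccucggacagccCACCCCggccgcagcccg
RTN4 exon 1, chr2:55276907-55276936: cgcgccccccucCACCCCggccgcgcccaa
ATL3 5′ end, chr11:63438826-63438855: cccucuccucuGCACCCCugcugcuucugc
ATL2 3′UTR, no peak: ugagcaggaaaCACCCCAguugagagcucu
ATL3 coding, no peak: aagaucugccuCACCCCAaguccaugcuuc
RTN2 coding, no peak: gcaggacugggGCACCCCccgggagcugac
RTN2 coding, no peak: gggcucugggaCACCCCAggccgguacucc
The matches without a peak lay at chr2:38521926-38521932 in ATL2, chr11:63403020-63403026 in ATL3, and chr19:45998167-45998173 and chr19:45997594-45997600 in RTN2.

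**Figure D1:**
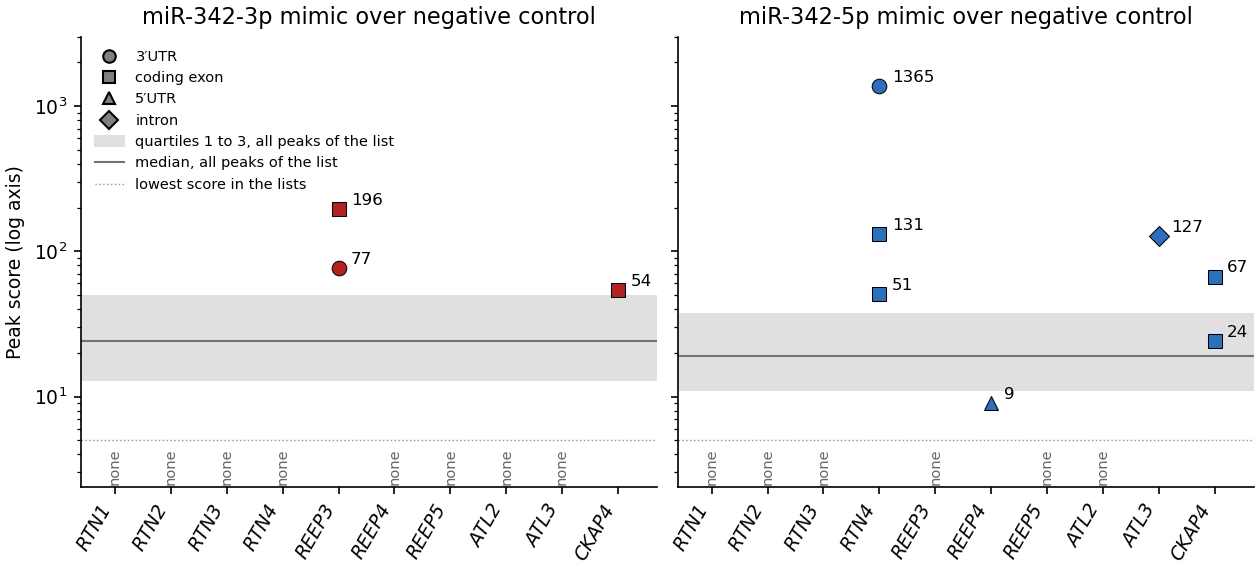
Peak score (log axis) of every peak in the 10 genes, by gene, for the miR-342-3p list (left) and the miR-342-5p list (right); symbols give the part of the gene, the grey band spans the quartiles of all peaks of the list, and "none" marks a gene without a peak. The RTN4 3′UTR peak at 1365 stands far above the other 6 miR-342-5p peaks, which lie between 9 and 131.

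RTN4 had 3 miR-342-5p peaks and no miR-342-3p peak. The highest scored 1365, rank 3 of 5010 in its list, where the median was 19 (quartiles 11 and 37). Above it stood the peaks on the miR-342 hairpin and on GAPDH, and the next score below was 1253, on a stretch of chromosome 2 with no annotated gene. Within the 3′UTR, where most known repressive sites lie, RTN4 held the highest of 869 miR-342-5p peaks, 1.92 times the next score of 710. Against the 131 3′UTR peaks whose best match was a 7mer-A1, the type found in RTN4, the median was 22.

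This peak covered 77 nt (chr2:55199672-55199748) in the last of 9 exons of the reference transcript, RTN4-202, with its summit 590 nt after the stop codon and 380 nt before the end of the transcript. Its single site, CACCCCA, was centred 8.0 nt downstream of the summit. All 8 transcripts of the basic annotation share this 3′UTR stretch, from the 1192-codon long form to the 199-codon short form. Among the 557 miR-342-5p peaks with CACCCCA as the best match it scored highest, 1.78 times the next at 767. In the gene the match reads GCCACCCCA, so a C stands where an 8mer would carry its G directly before CACCCCA, with the G 1 base further out. That 9-nt word occurred at 63 of the 557 peaks, with a median score of 23.0, the same as that of the whole group.

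The other RTN4 peaks scored 131 (rank 257) and 51 (rank 828), so that the 3′UTR peak was 10.4 times the second. Both lay in exon 1, with summits 459 nt apart, in the coding sequence of RTN4-201, RTN4-202 and RTN4-204. The peak of 131 (chr2:55277358-55277507) ran from the 5′UTR across the start codon, with its summit at codon 13 of 1192. The peak of 51 (chr2:55276917-55276988) had its summit at codon 166. Each held a 6mer, centred 10.5 and 17.5 nt downstream of its summit, and no longer match. The other 5 basic transcripts, those of 986 and 199 codons, do not contain these stretches in an exon, so among spliced basic transcripts these peaks belong to the forms of 373, 392 and 1192 codons.

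Every occurrence of CACCCC in RTN4-202 therefore had a miR-342-5p peak, the 7mer in the 3′UTR and both 6mers in exon 1. Over all reference (MANE Select) transcripts, 11.1% of the miR-342-5p 8mer and 7mer sites and 5.68% of the 6mers had a peak summit within 50 nt. In the other 9 genes together, 1 of 5 such sites and 1 of 10 6mers had one. RTN4 was named for its peak, so nothing is read from its share.

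**Figure D2:**
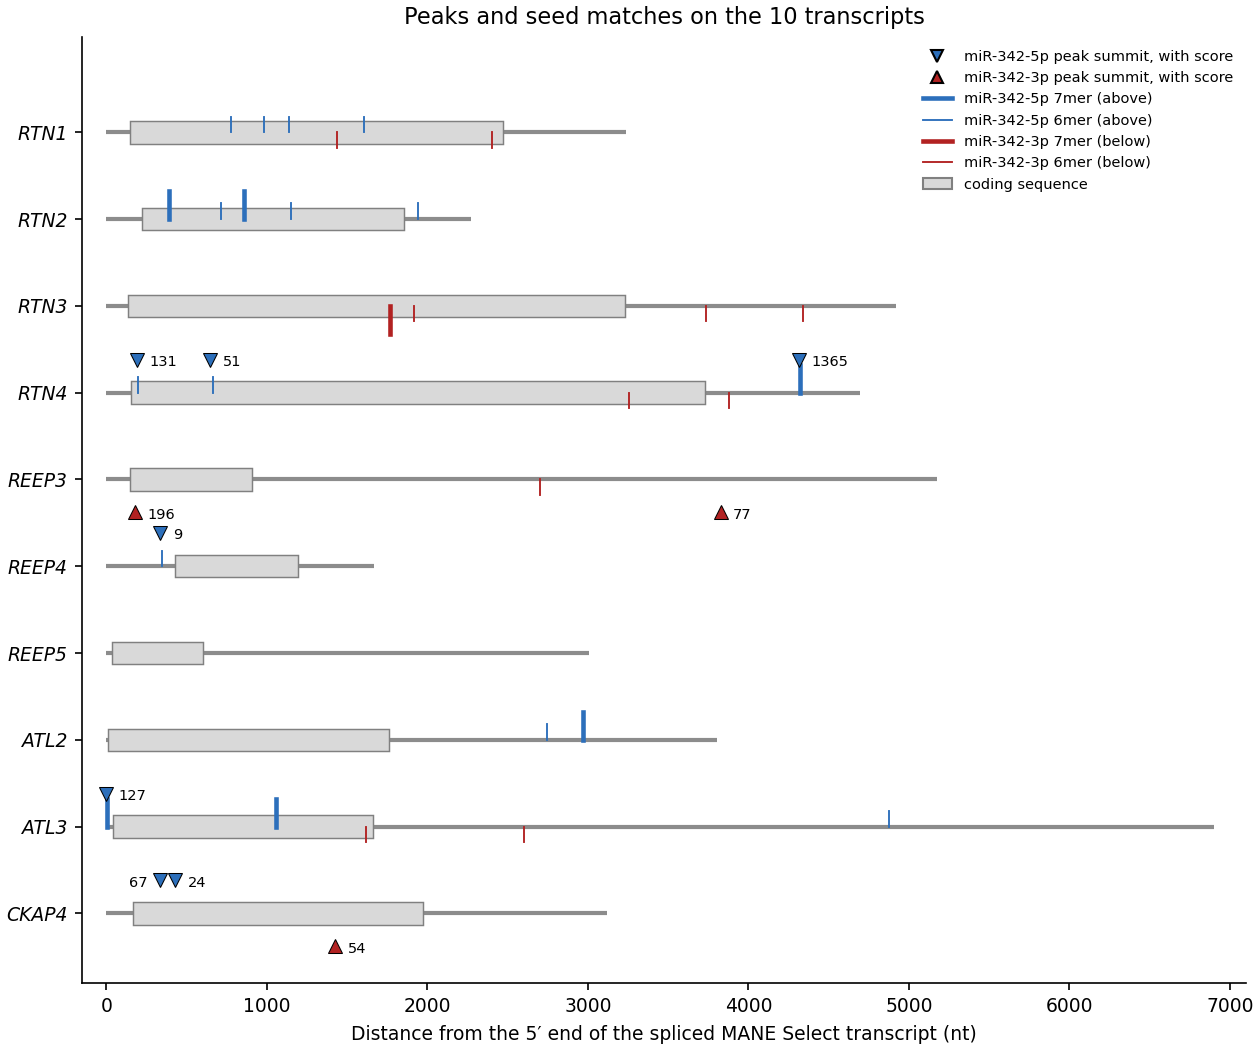
Reference transcript of each gene, drawn to scale from its 5′ end in nucleotides, with the coding sequence as a box; triangles mark peak summits with their scores (miR-342-5p above, miR-342-3p below) and vertical ticks mark 7mer (long) and 6mer (short) matches. The 3 RTN4 matches of miR-342-5p all have a peak, whereas those of RTN1, RTN2 and ATL2 have none; the ATL3 summit lies 1 nt before the transcript start.

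Of the atlastins, ATL3 had a miR-342-5p peak and ATL2 had none in either list. The ATL3 peak scored 127 (rank 269) and covered 83 nt, chr11:63438813-63438895. Its summit lay 1 nt and its midpoint 6 nt upstream of the annotated 5′ end of the reference transcript, ATL3-201, so the midpoint was placed in an intron of a longer basic transcript. In transcripts outside the basic set, the midpoint lay in a coding exon of ATL3-204 and an exon of the non-coding ATL3-202. The peak also held the offset 6mer GCACCC, centred 11.5 nt upstream of the summit. The 7mer-m8 GCACCCC under the peak began at nucleotide 5 of ATL3-201, inside the 41-nt 5′UTR, centred 8.0 nt downstream of the summit. This was the only 7-nt match with a peak among the 10 genes outside RTN4. Of all 5′UTR 7mer-m8 sites, 9.66% had a miR-342-5p peak.

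ATL2 and RTN4 carry the same 7mer-A1 in the 3′UTR, 837 and 376 nt from the transcript end. The RTN4 copy lay under the peak of 1365 and the ATL2 copy under none, as was the rule for such sites, since 128 of 3401 7mer-A1 sites in 3′UTRs, 3.76%, had a peak. The lowest predicted miR-342-5p hybrid energy was -18.7 kcal/mol in the 101 nt around the ATL2 match and -14.5 kcal/mol around the RTN4 summit. The prediction did not require the hybrid to pair the match itself. Without a measure of how much of each mRNA the cells held, a site that is not bound and an mRNA that is scarce cannot be told apart.

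REEP3 had both of its peaks in the miR-342-3p list. The higher scored 196, which tied it with ADAR at rank 169 of 3450 (list median 24, quartiles 13 and 49), and the lower scored 77, at rank 504. Neither held an 8mer, 7mer, 6mer or offset 6mer of miR-342-3p, and neither did the CKAP4 peak of that list. Over the list 20.6% of peaks held an 8mer or 7mer, beside 0 of these 3. Of the peaks next to it in rank, ITGB5 at 197 and GPI at 193 lay in a coding exon, like the REEP3 peak of 196. ITGB5 held a 7mer-m8 and GPI no match. ADAR at 196 and MARK3 at 193, both in a 3′UTR, each held an 8mer.

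The REEP3 peak of 196 covered 54 nt (chr10:65281284-65281337, plus strand) and stopped at the last base of exon 1, with its summit 1 nt before that end, at codon 11 of 255. Since the genomic sequence beyond it is intron, the spliced coding sequence is shown from the start codon, with exon 1 in capitals.
REEP3 exons 1 and 2: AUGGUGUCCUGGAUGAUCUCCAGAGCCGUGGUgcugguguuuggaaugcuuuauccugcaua
Reading across the junction brought in no 8mer, 7mer or 6mer. It moved the predicted miR-342-3p hybrid from -12.8 to -15.0 kcal/mol and that of miR-342-5p from -16.5 to -13.0 kcal/mol, which reversed the order of the mimics. It was the only miR-342-3p member peak with its midpoint in a first exon, beside 8.52% of that list.

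The REEP3 peak of 77 (chr10:65383492-65383571) lay in the 4262-nt 3′UTR, with its summit 2917 nt after the stop codon. It covered an unbroken run of 43 alternating U and G bases, whose start is shown with the run in capitals.
REEP3 3′UTR, chr10:65383510-65383539: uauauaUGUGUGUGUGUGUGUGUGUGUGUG
Runs of 30 nt or more were present at 4.41% of miR-342-3p peaks, with a median score of 17.5, and REEP3 lay above their upper quartile of 35.25. The run contains GUGUGUG but not UGUGAG, the 6mer of the seed. Whether reads from so repetitive a stretch were placed uniquely was not tested.

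REEP4 had the lowest score of the 7 miR-342-5p peaks, 9 (rank 4287), where the minimum of the list was 5. It lay in the 5′UTR on chromosome 8 with a 6mer 11.5 nt downstream of the summit, in an exon of 2 of 3 basic transcripts. REEP5, a REEP found in most cell types, had no peak and no 8mer, 7mer or 6mer of either mimic in its 3008-nt transcript. No further peak lay within 5000 nt outside any of the 10 genes on the same strand, and 0 peaks lay antisense to them.

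CKAP4 was the only one of the 10 genes with peaks in both lists, beside 4.06% of protein-coding genes. Its miR-342-3p peak scored 54 (rank 768) and lay in coding exon 2 of 2, at codon 419 of 602 (chr12:106633270-106633385). Its miR-342-5p peaks scored 67 (rank 588) and 24 (rank 1950) and lay in exon 1, at codons 56 and 87. The peaks of different lists were 996 and 1090 nt apart in the transcript, so the mimics were not listed at a shared place. The pair in exon 1 was separated by 1 nt (chr12:106641398-106641534 and chr12:106641348-106641396), with summits 94 nt apart.

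CKAP4 has no CACCCC in its transcript. The peak of 67 instead contained the offset 6mer GCACCC 3 times at a spacing of 12 nt, shown in capitals, between GCC-rich stretches of the coding sequence.
CKAP4 peak of 67: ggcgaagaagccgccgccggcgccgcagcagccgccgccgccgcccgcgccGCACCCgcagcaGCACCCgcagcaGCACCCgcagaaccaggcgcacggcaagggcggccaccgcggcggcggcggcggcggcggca
CKAP4 peak of 24: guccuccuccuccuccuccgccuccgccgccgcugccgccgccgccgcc
These were the only offset 6mers in CKAP4. Leaving out copies inside a longer match, they were 3 of the 6 in the 10 reference transcripts, the others having no peak. Over all reference transcripts 2.31% of miR-342-5p offset 6mers had a peak, and 4.49% of miR-342-5p peaks held the offset 6mer with no longer match. The predicted hybrid at the peak of 67 was the most stable of the member peaks at -20.8 kcal/mol, and 14.1% of the list was at or below it. At its neighbour, which held no match, the value was -13.4 kcal/mol, with 94.5% of the list at or below.

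RTN1, RTN2 and RTN3 had no peak. RTN1, whose expression is mainly neuronal and neuroendocrine, carried 4 6mers of miR-342-5p and 2 of miR-342-3p. RTN2, a reticulon of muscle and nerve, carried 2 miR-342-5p sites, as many as ATL3 and more than the other 8 genes, a 7mer-m8 and a 7mer-A1 in the coding sequence, beside 3 6mers. The lowest predicted hybrid energies in the 101 nt around these 7mers were -24.6 and -20.7 kcal/mol. The value around the RTN4 3′UTR summit was -14.5 kcal/mol. RTN3, a widely expressed reticulon, carried the only miR-342-3p 7mer of the 10 genes, in its coding sequence. The 10 miR-342-3p 6mers of the 10 genes had no peak either, beside 0.843% of such 6mers in all reference transcripts, and 5.74% of the longer miR-342-3p sites had one.

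By list, 2 of 10 genes had a miR-342-3p peak and 4 of 10 a miR-342-5p peak. Among 20162 protein-coding genes, 11.8% had a miR-342-3p peak and 11.8% a miR-342-5p peak, and nothing is read from this because the genes were picked with their peaks known. Of the 7 miR-342-5p peaks, 2 held an 8mer or 7mer, all of them 7mers, beside 33.0% of the list, and 3 held a 6mer as the best match, beside 16.0%. None of the 10 peaks held an 8mer or 7mer of the mimic that was not transfected. The centre of the best match lay 8.0 to 17.5 nt downstream of the summit in all 5 peaks that had a match. In the whole miR-342-5p list it lay downstream in 56.5% of 2455 peaks, at a median of 2.5 nt (quartiles -5.0 and 9.5).

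Most miR-342-5p member peaks lay in the first exon of the reference transcript. Of the 7 miR-342-5p peaks 5 had the midpoint in a first exon, beside 12.9% of the list, and the ATL3 midpoint lay 6 nt before one. Those 5 were the RTN4 and CKAP4 pairs and REEP4, so they came from only 3 genes. First-exon peaks of that list had a median of 64.4% G and C in the 101 nt around the summit, against 58.4% elsewhere. The RTN4 3′UTR window had 35.6%, and only 2.04% of the list was as low or lower. The other 6 miR-342-5p windows ranged from 65.3% to 83.2%, above the list median of 59.4%. For miR-342-3p (list median 49.5%) REEP3 had 68.3% around its exon 1 summit and 36.6% in the 3′UTR, and CKAP4 63.4%. The window around the REEP3 exon 1 summit was genomic and ran into the intron.

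**Figure D3:**
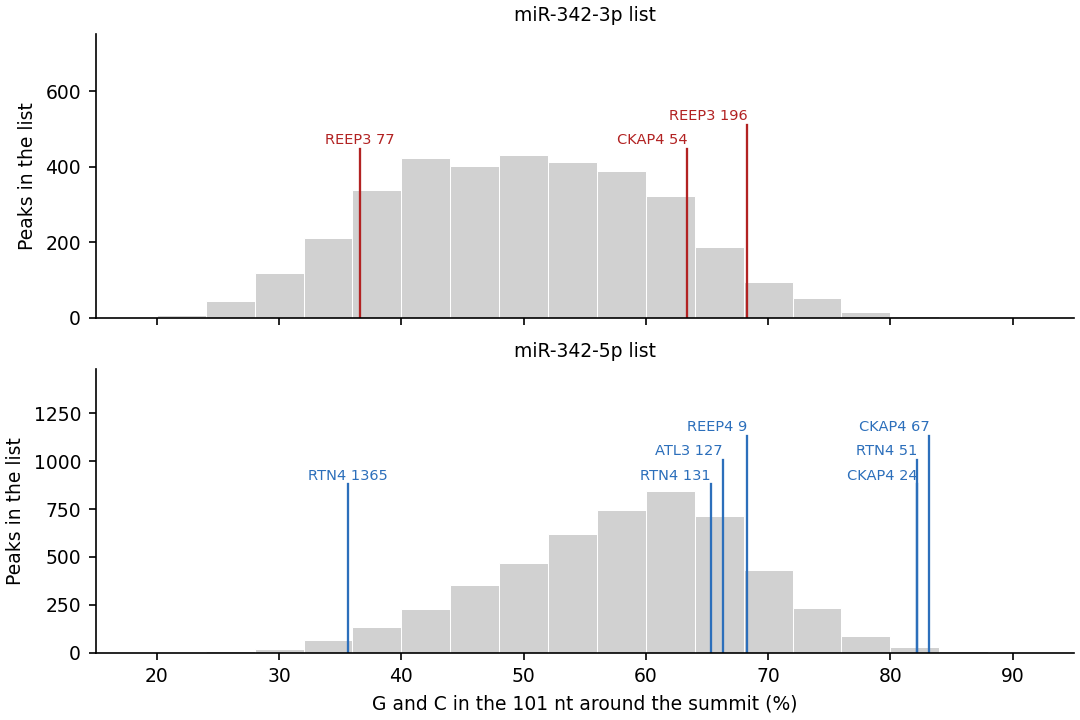
G and C content (%) of the 101 nt around the summit, as the number of peaks in each bin of the whole list (grey bars), with a line for each member peak labelled by gene and score. The RTN4 peak of 1365 lies at the low edge of the miR-342-5p list at 35.6%, and the RTN4 and CKAP4 exon 1 peaks of 51, 24 and 67 at its high edge.

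The highest score did not come with the most stable predicted pairing. The highest miR-342-5p member score, RTN4 in the 3′UTR, had a hybrid of -14.5 kcal/mol, with 87.7% of the miR-342-5p list at or below it (list median -17.6). It formed 13 pairs, which took in all 7 seed bases and all 4 of bases 13 to 16, the stretch that most often adds pairing beyond the seed. The 7 predicted seed pairs were not a full seed match, since the window held a 7mer-A1 and no 8mer or 7mer-m8. The ATL3 hybrid formed 8 pairs, within bases 1 to 8, and none at bases 13 to 16, at -17.0 kcal/mol. The RTN4 exon 1 peaks reached -18.0 and -19.4 kcal/mol and REEP4 -17.2 kcal/mol with a 6mer. In all 7 miR-342-5p windows miR-342-5p paired more stably than miR-342-3p, whose values ran from -6.6 to -12.0 kcal/mol. Over the list the medians were -17.6 and -10.9 kcal/mol, so this order is that of the list. At the 3 miR-342-3p windows miR-342-3p gave -12.8, -15.8 and -16.2 kcal/mol, and in 2 of them, REEP3 exon 1 and CKAP4, miR-342-5p gave the more stable value in the genomic window.

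**Figure D4:**
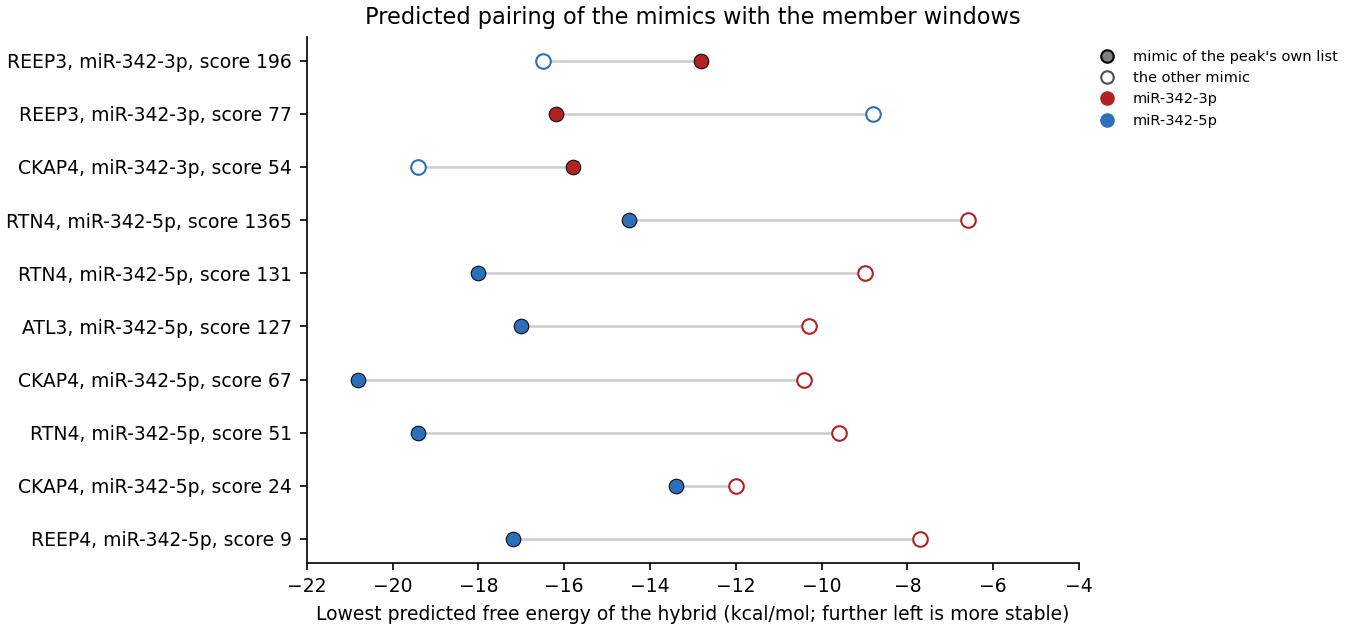
Lowest predicted free energy (kcal/mol) of the hybrid between each mimic and the 101 nt around each member summit; filled points are the mimic of the peak's own list, open points the other mimic, ordered by list and score. Own-mimic values lie between -20.8 and -12.8 kcal/mol, and the RTN4 peak of 1365 is at -14.5 kcal/mol.

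Of 31 further genes of ER shape and function, 13 had a peak in either list, 8 in each and 3 in both (TMEM33, RRBP1 and VAPB). Among all protein-coding genes 19.5% had a peak in either list, 11.8% in each and 4.06% in both. These genes were also listed with results of these data known, and the difference was not tested. Among 9 tubule and junction genes, REEP1, REEP2, REEP6 and ATL1 included, only TMEM33, which binds reticulons, had peaks, with scores of 9 (miR-342-3p) and 12 (miR-342-5p). Of 5 receptors and partners of RTN4, including RTN4R, the Nogo receptor, none had a peak. RRBP1, the ribosome-binding sheet protein, had 2 miR-342-3p peaks (27 and 108) and 6 miR-342-5p peaks (6 to 34), none with an 8mer, 7mer or 6mer, whereas KTN1, another sheet protein, had none. Both sheet genes with peaks, CKAP4 and RRBP1, had adjoining miR-342-5p peaks in coding sequence without an 8mer, 7mer or 6mer. Such peaks were common in the list, where 70.1% of peaks lay in coding exons and only 2455 of 5010 held any of these matches. Of the miR-342-5p peaks of these 2 genes, only the CKAP4 peak of 67 held the offset 6mer.

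Of the 6 ER-phagy receptors, which mark ER for degradation, RETREG3 (65) and SEC62 (11) had a miR-342-3p peak and RETREG2 (13 and 25) had miR-342-5p peaks. All 5 contact genes, whose proteins tether the ER to other membranes, had a peak in either list, 3 in each, which is likewise a description of 5 genes. ESYT2 (16), VAPA (19) and VAPB (13) each had a miR-342-3p peak with a 7mer, and ESYT1 (62), PDZD8 (22) and VAPB (10) a miR-342-5p peak without one. The VAPB peaks of the lists overlapped by 55 nt. In RRBP1 the miR-342-3p peak of 108 (chr20:17640540-17640657) also overlapped a miR-342-5p peak, which scored 7 (chr20:17640524-17640561). Of 4 translocon genes, SEC61G had a miR-342-3p peak of 57 with an 8mer, SEC61A1 a miR-342-5p peak of 148 with a 7mer-A1 and SEC63 a miR-342-5p peak of 23 without a site. The highest miR-342-5p score in these 31 genes, 148, was above all the miR-342-5p peaks of the 10 genes but the RTN4 3′UTR peak.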

How the data were processed

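Ago-HITS-CLIP libraries were made from cells given 1 of 3 mimics, with 3 libraries each. Per the submitters' processing notes and the study's methods, reads were trimmed with cutadapt 1.13, mapped to hg19 with TopHat2 2.0.13, handled with UMI-tools, quality-filtered with Samtools, and peaks were called with MACS2 2.1.1.20160309. The authors deposited 2 merged peak lists with a whole-number score per peak, which the methods describe as reads above background with a minimum of 5. The scaling of the libraries to each other is not given in the sources used here, so scores were ranked only within a list. No column was left unmapped (0).

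Peaks were placed by midpoint in GENCODE release 44 genes lifted to GRCh37 (hg19), using basic transcripts without read-through ones, with a 3′UTR taken before a coding exon, then the 5′UTR, exons of non-coding transcripts and last introns. The stop codon counted as 3′UTR. The summit column counted from 0: it equalled the start in 140 peaks and the end in 0. Seed matches were searched within 50 nt of the summit, on the peak's strand (Python 3.11.15, pysam 0.24.0). Hybrids were predicted for the 101-nt genomic window, and for 101 nt of spliced transcript around 7-nt matches without a peak, with RNAduplex of ViennaRNA 2.7.2. Mature miRNA sequences came from RefSeq. Site search and placement were tested on simulated data.

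Named genes were the 10 listed genes, members with a peak of 31 further ER genes grouped by role, and neighbours in rank. The members and lists were chosen with earlier results of these data known. No test was run, since the lists hold 1 merged value per peak. Alternatives changed the score threshold, the rule of assignment, the window and the site types.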

Additional observations from a re-analysis of the deposited data

How the results depend on the processing

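At a score above 100, 1 miR-342-3p peak in 1 gene (REEP3) and 3 miR-342-5p peaks in 2 genes (RTN4 and ATL3) were left of the 10. The number of miR-342-5p peaks with a seed site, 2 with 8mers and 7mers, was 0 with 8mers alone, 5 with 6mers counted too, and 6 with the offset 6mer as well, the last chosen after seeing the data. The other 31 values stayed equal or close to those reported, under thresholds of at least 10 and above 50, placement by summit or overlap, and windows of 25 nt or the peak itself. Among them, the 7 miR-342-5p peaks in 4 genes became 6 in 3 genes at a score of at least 10. Above 50 they became 5 in 3 genes, and REEP4 lost its only peak at both thresholds. Counting any overlap with a first exon, also chosen after seeing the data, gave 6 miR-342-5p peaks in place of 5. No paired analysis was possible because the lists merge the replicates, and for the same reason no replicate could be left out. The read depth of the libraries is unknown, and mRNA levels were not analysed here, so a missing peak sets no limit on binding.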
